A study of Mus musculus with 8 samples.

Results

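Proximal T cell receptor (TCR) signalling was described through 38 genes of 42748 in the count table. They were named by symbol for their known place in the pathway, with earlier results of these data known. They fell into 8 groups: 4 receptor chains, 4 coreceptors and surface modulators, 5 tyrosine kinases, 7 adaptors and effectors, 3 genes of the PKC theta to NF-kB branch, 7 phosphatases, Csk and other restraints, 3 genes of diacylglycerol and Ras, and 5 of calcium and NFAT. Counts were recorded for 37 of them, and all 37 passed the filter on low counts. *Lcp2* was listed at 0 in all 8 libraries.

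Engagement of the TCR leads Lck to phosphorylate the CD3 and zeta chains, to which the kinase Zap70 binds. Zap70 then phosphorylates the adaptors LAT and SLP-76, which assemble the complex that activates PLC gamma 1, and this in turn feeds the calcium and NFAT, the Ras and the PKC theta to NF-kB branches. Regulatory T (Treg) cells depend on TCR signals for their suppressive activity, and phosphatases, Csk, Cbl-b and diacylglycerol kinases restrain the same pathway.

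The 4 Ripk1-deficient YFP+ libraries, whose genotype is labelled Ripk1 -/-, and the 4 Ripk1-proficient YFP- libraries, labelled Ripk1+/+, were made from CD4+ CD25+ Treg cells of spleen and lymph nodes. Per the study's methods both fractions were sorted from female Ripk1fl/fl Foxp3Cre/wt mice, in which random X inactivation leaves Cre-YFP, driven from the *Foxp3* locus, active in a part of the Treg cells only. No source used here gives the age of the sorted mice. All 8 libraries thus share the floxed *Ripk1* alleles, and the loss of *Ripk1* and the presence of the YFP/Cre knock-in cannot be told apart. Each fraction has a library numbered 21, 46, 48 and 53; whether a number stands for 1 mouse is not stated, so the spread behind each p-value may be technical.

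Total counts were 29719251 to 55371610 in YFP+ and 43737313 to 70782679 in YFP- libraries. YFP+ library 21 stood apart: 9571 genes reached 10 counts in it, against 13047 to 15550 in the other YFP+ and 15425 to 16558 in YFP- libraries, and its highest correlation with any other library was 0.652. *Ripk1* itself averaged 22.5 ± 6.09 CPM (counts scaled to library size with TMM factors) in YFP+ and 29.4 ± 10.6 CPM in YFP- libraries (SD, n = 4 each), with a log2 fold change of -0.38 ± 0.39 (SE; edgeR adjusted p = 0.713). Counts are per gene and do not show whether the floxed exons are present. The Treg and CD4 T cell markers had summed levels of 5678 to 8805 CPM (YFP+) and 5888 to 6850 CPM (YFP-), with *Foxp3* listed at 0 in all 8 libraries. Most of each sum was *Trbc2* and *Cd2*, so it does not show single Treg genes. Of the 8 markers with counts, 1 was lower in YFP+ with all 8 libraries and 0 were higher. The lower marker was *Ctla4*, at 162 ± 34.3 CPM (YFP+) and 388 ± 33.2 CPM (YFP-), log2 fold change -1.26 ± 0.20 (edgeR adjusted p = 0.0373). Without YFP+ library 21 *Il7r* was lower too (-1.38 ± 0.23, edgeR adjusted p = 0.0219), against -0.79 ± 0.43 (adjusted p = 0.476) with it.

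Marker sums of B cells, dendritic cells and macrophages lay above the YFP- range in all 4 YFP+ libraries. The 13 B cell markers ranged in sum between 207 and 2607 CPM (YFP+) and between 103 and 141 CPM (YFP-), with *Ms4a1* at 0 throughout. The sum of 9 MHC class II and dendritic cell markers was 913 to 16072 CPM (YFP+) and 485 to 774 CPM (YFP-), and that of 11 macrophage and monocyte markers 52.6 to 571 CPM (YFP+) and 13.6 to 22.4 CPM (YFP-). The 9 erythroid and platelet markers, with *Alas2* at 0, reached 298 to 5113 CPM (YFP+) and 94.8 to 360 CPM (YFP-). Each of these sums was highest in YFP+ library 48. The erythroid list and the rest overlapped between the fractions. CD8 T cell markers held 23.6 to 80 CPM (YFP+) and 14.9 to 29 CPM (YFP-). NK cell markers held 0.379 to 69 CPM (YFP+) and 16.9 to 19.4 CPM (YFP-). Neutrophil markers held 0.206 to 87.9 CPM (YFP+) and 0.324 to 7.83 CPM (YFP-). Stromal and endothelial markers held 272 to 348 CPM (YFP+) and 295 to 330 CPM (YFP-). Most of this last sum was *Pecam1*, at 245 to 347 CPM (YFP+) and 292 to 329 CPM (YFP-). The stromal gene *Col1a2* was highest in YFP+ library 48, at 13.9 CPM.

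None of the 37 genes passed the test with all 8 libraries. By edgeR's quasi-likelihood test with Benjamini-Hochberg adjustment over 15063 genes, at a threshold of 0.05, 0 were lower in YFP+, against 0.836% of all genes, and 0 were higher, against 0.0332% of all genes. At an unadjusted p under 0.05 the test held 7 of the 37 (18.9%), against 1892 of all genes (12.6%), and DESeq2 called 0 of the 37 lower and 0 higher, against 3.86% and 3.41% of all genes. The median log2 fold change of the 37 was -0.01, with an interquartile range of -0.21 to 0.37, against -0.02 and -0.65 to 0.55 for all genes; 19 values were negative and 18 positive. In bulk RNA, fewer cells of a type and less RNA per cell cannot be told apart.

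The fractions did not overlap for 3 genes, *Ptpn22*, *Dgka* and *Nfatc1*, all lower in YFP+ (8.11% of the 37, against 10.6% of all genes), and for 0 genes in the other direction, against 7.83% of all genes. Among libraries of the same number, 7 genes were lower in YFP+ in all 4 numbers (18.9%, against 19.3% of all genes): *Fyn*, *Lat*, *Prkcq*, *Ptpn22*, *Dgka*, *Dgkz* and *Nfatc1*. Another 4 were higher in YFP+ in all 4 numbers (10.8%, against 14.7% of all genes): *Cd3d*, *Txk*, *Themis* and *Pag1*. These shares were near to or below those of all genes.

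Without YFP+ library 21, 1 gene of the 37, *Ptpn22*, fell, against 3.97% of 15832 genes, and 0 rose, against 2.68%. The same 3 genes had fractions that did not overlap, against 13.7% of all genes that were lower, and 0 were wholly higher, against 12.5%. The median log2 fold change of the 37 was then 0.08, against -0.01 for all genes, and 5 of the 37 (13.5%) had an unadjusted p under 0.05, against 24.8% of all genes.

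**Figure D1:**
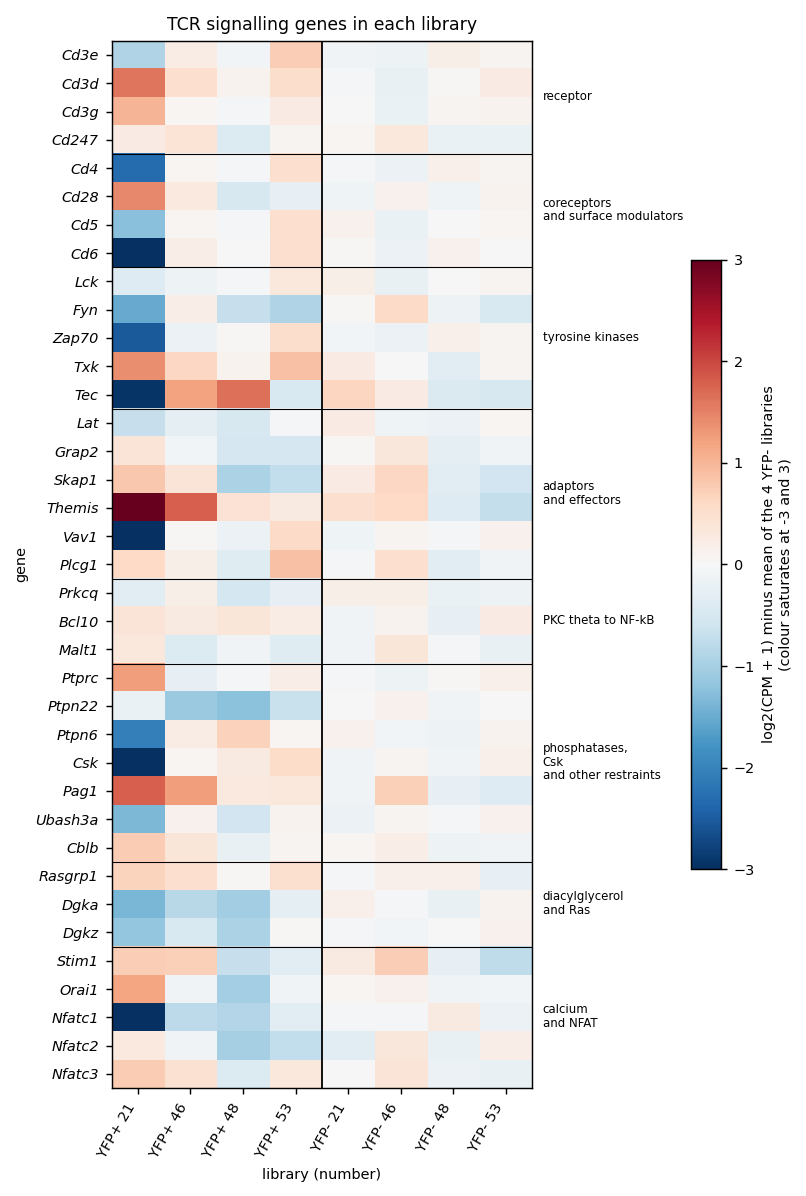
Each row is 1 of the 37 TCR signalling genes with counts, in 8 groups by role, and each column 1 library, YFP+ left of YFP-; colour gives log2(CPM + 1) minus the mean of the 4 YFP- libraries and saturates 3 units either side of 0. The YFP- columns are pale, YFP+ library 21 holds most of the strong colours, with 5 genes under 10% of the mean of the other YFP+ libraries, and *Ptpn22*, *Dgka* and *Nfatc1* are below 0 in all 4 YFP+ libraries.

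The CD3 and zeta chain genes, which encode the signalling part of the receptor, were measured at high levels in both fractions. With all 8 libraries none of their 4 fold changes was negative, though that of *Cd3e* was -0.20 without YFP+ library 53 and that of *Cd247* -0.08 without YFP+ library 46. *Cd3e* had 434, 952, 769 and 1353 CPM in YFP+ libraries 21, 46, 48 and 53, against 759, 728, 928 and 862 CPM in YFP-. The YFP+ values lay on both sides of the YFP- range, and the log2 fold change was 0.10 ± 0.32 (SE; edgeR adjusted p = 0.925). *Cd3g* had 1469, 749, 707 and 860 CPM in YFP+ and 727, 631, 768 and 784 CPM in YFP- libraries, highest in YFP+ library 21, with YFP+ library 53 also above the YFP- range (0.38 ± 0.25, adjusted p = 0.548).

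*Cd3d* had 1614, 756, 576 and 771 CPM in YFP+ libraries, against 510, 457, 547 and 629 CPM in YFP-. It was higher in YFP+ in all 4 numbers, yet YFP+ library 48 lay below YFP- library 53, and the log2 fold change of 0.79 ± 0.32 did not pass the test (edgeR adjusted p = 0.368; 0.38 ± 0.15 and 0.161 without YFP+ library 21). *Cd247*, the zeta chain, had 614, 694, 390 and 548 CPM in YFP+ and 543, 649, 452 and 455 CPM in YFP- libraries, and the fractions overlapped almost wholly (0.10 ± 0.22, adjusted p = 0.887). Part of *Cd247* is shared with other annotated genes, *Pou2f1* among them, and 32.8% of its exon bases are free of all of these.

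*Cd3e*, *Cd3d* and *Cd3g* lie next to each other on chromosome 9 (GRCm38), *Cd3d* at 44981786 to 44987339, *Cd3g* at 44969572 to 44980431 and *Cd3e* at 44998740 to 45009627. The ratio of *Cd3e* to *Cd3g* was 1.27, 1.09 and 1.57 in YFP+ libraries 46, 48 and 53 and 1.04 to 1.21 in YFP- libraries, but 0.295 in YFP+ library 21. The ratio of *Cd3d* to *Cd3g* was 0.814 to 1.1 in YFP+ and 0.702 to 0.802 in YFP- libraries, with only a narrow gap. That of *Cd247* to *Cd3g* overlapped, at 0.418 to 0.928 in YFP+ and 0.58 to 1.03 in YFP-. So did that of *Cd3e* to *Cd3d*, at 0.269 to 1.76 in YFP+ and 1.37 to 1.7 in YFP-. How often ratios of other gene pairs separate the fractions was not tested. Per kilobase of exon, the mean level of *Cd3d* was 512 CPM in YFP+ and 295 CPM in YFP-, that of *Cd3g* 289 CPM in YFP+ and 223 CPM in YFP-, that of *Cd3e* 215 CPM in YFP+ and 201 CPM in YFP-, and that of *Cd247* 105 CPM in YFP+ and 98.5 CPM in YFP-. Without YFP+ library 21 the YFP+ level per kilobase was 251 CPM for *Cd3e* and 236 CPM for *Cd3g*, so the order of these 2 genes in YFP+ rested on that library.

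The coreceptor *Cd4* had 84.4, 441, 410 and 599 CPM in YFP+ libraries, against 403, 372, 469 and 443 CPM in YFP-. It was low in YFP+ library 21 alone, and the log2 fold change of -0.14 ± 0.49 turned to 0.19 ± 0.15 without that library (edgeR adjusted p = 0.933 and 0.494). *Cd28*, the costimulatory receptor, behaved the other way: 1200 CPM in YFP+ library 21, against 316 to 545 CPM in the other YFP+ and 407 to 489 CPM in YFP- libraries. The fold change was again of opposite sign with and without that library, 0.45 ± 0.41 and -0.12 ± 0.20.

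*Cd5* and *Cd6* encode scavenger receptor proteins that dampen TCR signals. *Cd5* had 239 CPM in YFP+ library 21, and 562 to 820 CPM in the other YFP+, against 503 to 632 CPM in YFP- libraries. *Cd6* had 11.3 CPM in YFP+ library 21, and 617 to 866 CPM in the other YFP+, against 543 to 675 CPM in YFP- libraries. Both genes thus lay within or above the YFP- range in 3 YFP+ libraries, and neither passed the test (edgeR adjusted p = 0.961 and 0.955).

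*Lck*, the kinase that starts the cascade, had 1262, 1476, 1602 and 2054 CPM in YFP+ libraries, against 1852, 1405, 1618 and 1736 CPM in YFP-. The fractions overlapped, and the log2 fold change was -0.05 ± 0.18 (edgeR adjusted p = 0.937). *Lck* had the highest level per kilobase of exon of the 37 genes in both fractions, 546 CPM in YFP+ and 564 CPM in YFP-. *Zap70* had 54.1, 281, 325 and 455 CPM in YFP+ libraries, against 300, 279, 352 and 336 CPM in YFP-, low in YFP+ library 21 only (-0.18 ± 0.52, adjusted p = 0.910).

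*Fyn*, the second Src family kinase of T cells, had 66.8, 223, 120 and 103 CPM in YFP+ and 199, 289, 173 and 141 CPM in YFP- libraries. It was lower in YFP+ in all 4 numbers, but library 46 was the highest in each fraction, so the fractions overlapped (-0.65 ± 0.39, adjusted p = 0.509). The Tec family kinase *Txk* had 365, 211, 149 and 253 CPM in YFP+ and 163, 138, 111 and 145 CPM in YFP- libraries. Only YFP+ library 48 reached into the YFP- range, and the log2 fold change of 0.81 ± 0.29 did not pass the test (adjusted p = 0.319). *Tec* itself was scarce, at 0.142, 19.2, 26.6 and 5.43 CPM in YFP+, against 5.24 to 12.8 CPM in YFP- (0.64 ± 1.12, adjusted p = 0.852), highest in YFP+ library 48, which also held the most B cell and myeloid markers; the part of those cells in its level was not tested.

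*Lat*, the membrane adaptor, had 612, 818, 714 and 967 CPM in YFP+ libraries, against 1169, 907, 880 and 1030 CPM in YFP-. It was lower in YFP+ in all 4 numbers, with YFP+ library 53 inside the YFP- range, and the log2 fold change of -0.36 ± 0.19 did not pass the test (edgeR adjusted p = 0.461). *Lcp2*, which encodes SLP-76, was listed at 0 in all 8 libraries. It lies on chromosome 11 at 34046920 to 34092295 wholly within the span annotated as *4930469K13Rik*, with 0% of its span free of that gene, which itself held 1 to 110 counts in YFP+ and 138 to 343 counts in YFP- libraries.

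The remaining adaptors and effectors varied as much between libraries as between fractions. *Skap1*, an adaptor of integrin activation, had 1723, 1292, 512 and 594 CPM in YFP+ and 1178, 1517, 796 and 662 CPM in YFP- libraries. In both fractions the libraries numbered 21 and 46 were above those numbered 48 and 53, and the log2 fold change was -0.01 ± 0.44 (adjusted p = 0.993). *Themis*, a regulator of TCR signal strength in thymocytes, showed the same order, at 1210, 384, 149 and 132 CPM in YFP+ and 156, 168, 83.5 and 66.9 CPM in YFP- libraries. Its log2 fold change of 1.98 ± 0.75 was the highest of the 37, did not pass the test (adjusted p = 0.346) and was 0.89 ± 0.48 without YFP+ library 21.

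*Vav1*, the guanine nucleotide exchange factor, had 14 CPM in YFP+ library 21 and 198 to 335 CPM in the other YFP+, against 204 to 246 CPM in YFP- libraries (adjusted p = 0.928). *Grap2*, which encodes the SLP-76 partner Gads, averaged 55.3 ± 17.4 CPM in YFP+ and 61.5 ± 11.8 CPM in YFP- libraries (SD, n = 4 each). *Plcg1*, the phospholipase, averaged 66.8 ± 24 CPM in YFP+ and 51.7 ± 13.8 CPM in YFP- libraries. Only 6.8% of its exon bases are free of other annotated genes, *Zhx3* among them, so its value is uncertain. Neither gene passed the test (adjusted p = 0.871 and 0.686).

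**Figure D2:**
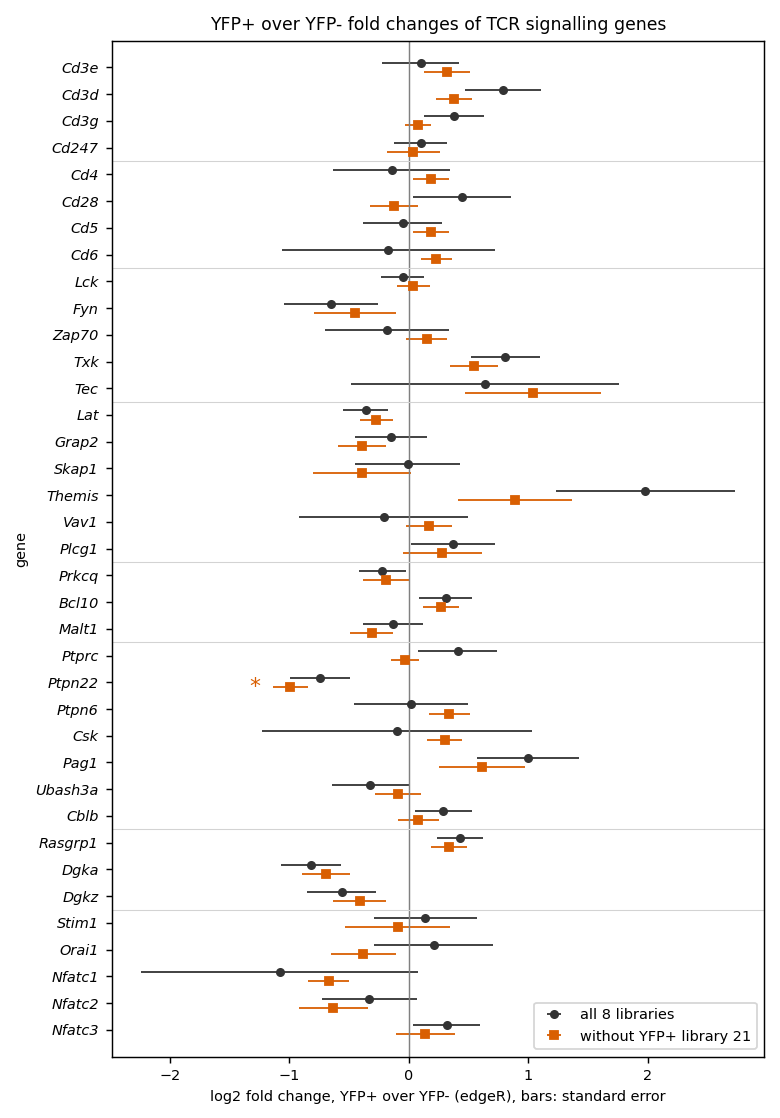
Log2 fold change of YFP+ over YFP- (x axis) for the 37 genes (y axis), grouped by role, with all 8 libraries (dark circles) and without YFP+ library 21 (orange squares); bars are standard errors and the asterisk marks the gene with an adjusted p under 0.05. *Ptpn22* carries the only asterisk, at -0.99, and the widest bars with all 8 libraries belong to *Nfatc1*, *Csk*, *Tec* and *Cd6*, the genes at the lowest share in YFP+ library 21.

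The PKC theta to NF-kB branch had overlapping values in the fractions. *Prkcq*, which encodes PKC theta, averaged 506 ± 108 CPM in YFP+ and 590 ± 79.8 CPM in YFP- libraries (SD, n = 4 each, as for the next genes). *Malt1* averaged 91.7 ± 22.2 CPM in YFP+ and 101 ± 19 CPM in YFP-, and *Bcl10* 76.2 ± 3.96 CPM in YFP+ and 61.6 ± 9.5 CPM in YFP- libraries. *Bcl10* and *Malt1* encode the partners that link CARMA1 to NF-kB. Their log2 fold changes lay between -0.22 and 0.31 and none passed the test (edgeR adjusted p = 0.570 to 0.862). *Bcl10* was the steadiest of the 37 genes in YFP+, at 72 to 80.4 CPM.

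*Ptpn22*, a phosphatase that acts on Lck, Zap70 and the zeta chain, had the lowest adjusted p of the 37 genes once YFP+ library 21 was left out. It had 294, 155, 143 and 211 CPM in YFP+ libraries 21, 46, 48 and 53, against 335, 366, 312 and 330 CPM in YFP-. The highest YFP+ value was below the lowest YFP- value, and the YFP+ library nearest to the YFP- range was number 21. With all 8 libraries the log2 fold change of -0.74 ± 0.25 did not pass the test (edgeR adjusted p = 0.298). Without YFP+ library 21 *Ptpn22* averaged 170 ± 36.3 CPM in YFP+ (SD, n = 3), against 336 ± 22.5 CPM in YFP- (SD, n = 4), and fell by 0.99 ± 0.15 on the log2 scale, 0.50-fold (edgeR quasi-likelihood test with Benjamini-Hochberg adjustment, adjusted p = 0.0197). Without YFP+ libraries 21 and 48 it was -0.88 (adjusted p = 0.0354), and with number 21 left out of both fractions -0.99 (adjusted p = 0.0598). Over 20 alternatives, its log2 fold change ran from -0.99 to -0.61 and its adjusted p from 0.0197 to 0.66.

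*Dgka* encodes diacylglycerol kinase alpha, which removes the diacylglycerol that activates RasGRP1 and PKC theta. It had 299, 435, 378 and 647 CPM in YFP+ libraries, against 856, 762, 659 and 838 CPM in YFP-. The fractions did not overlap, though YFP+ library 53 and YFP- library 48 were close. The log2 fold change was -0.82 ± 0.25 with all 8 libraries and -0.69 ± 0.20 without YFP+ library 21, and neither passed the test (edgeR adjusted p = 0.241 and 0.0849). *Dgkz*, the zeta form of the same enzyme, had 51.7, 84.4, 60.6 and 120 CPM in YFP+ and 114, 110, 116 and 129 CPM in YFP- libraries, lower in YFP+ in all 4 numbers with YFP+ library 53 inside the YFP- range (-0.56 ± 0.29, adjusted p = 0.456).

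The promoters of *Ptpn22* and *Dgka* are shown because these are the restraints whose fractions did not overlap. For brevity 1 of the 4 *Dgka* windows is printed. RefSeq (GRCm38.p6) windows of 250 bases before to 50 after a start were matched for 31 of the 38 genes. Capitals mark the letters TGTGGT, a RUNX motif, in either orientation (as ACCACA on the printed strand), and GGGNNNNNCC, an NF-kB motif, which can match on either strand; these 2 motifs do not overlap in the stretches shown.
Ptpn22, first start, chr3:103859545-103859844, plus strand: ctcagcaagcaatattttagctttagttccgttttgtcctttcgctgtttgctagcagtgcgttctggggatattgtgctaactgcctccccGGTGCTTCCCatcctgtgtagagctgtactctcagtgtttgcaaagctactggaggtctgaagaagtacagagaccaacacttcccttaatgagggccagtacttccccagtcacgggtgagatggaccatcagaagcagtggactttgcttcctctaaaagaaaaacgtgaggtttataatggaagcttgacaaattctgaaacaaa
Ptpn22, second start, chr3:103860027-103860326, plus strand: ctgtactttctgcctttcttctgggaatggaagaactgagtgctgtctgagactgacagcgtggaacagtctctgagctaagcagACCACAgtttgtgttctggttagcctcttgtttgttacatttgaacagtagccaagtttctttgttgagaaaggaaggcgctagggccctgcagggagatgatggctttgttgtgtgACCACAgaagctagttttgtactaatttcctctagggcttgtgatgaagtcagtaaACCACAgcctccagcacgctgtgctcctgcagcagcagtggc
Dgka, second of 4 starts, chr10:128744027-128744326, minus strand: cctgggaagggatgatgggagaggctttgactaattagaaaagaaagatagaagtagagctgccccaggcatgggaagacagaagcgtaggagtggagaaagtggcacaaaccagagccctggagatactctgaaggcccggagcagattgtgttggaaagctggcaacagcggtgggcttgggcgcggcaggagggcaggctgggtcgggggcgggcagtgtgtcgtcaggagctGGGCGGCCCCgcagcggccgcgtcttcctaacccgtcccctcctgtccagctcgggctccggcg

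The second *Ptpn22* window held the RUNX letters 3 times, and the other 2 windows shown held the NF-kB letters once each. Of the *Dgka* windows not printed, the first held an NFAT match (GGAAAA), the third, which overlaps the one shown, the NF-kB letters 4 times, and the fourth no match. The RUNX letters stood in 11.1% of 45 windows of the 31 genes, against 16.8% of 32851 windows of all genes, and the NF-kB letters in 51.1%, against 50.8%. An NFAT motif (GGAAAA) was in 13.3%, against 23.4%, an ETS motif (CCGGAA, which shares letters with it) in 6.67%, against 14.9%, and an AP-1 motif (TGANTCA) in 0%, against 7.81%, both strands counted. A match of letters is a description of the window and not a bound site.

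**Figure D3:**
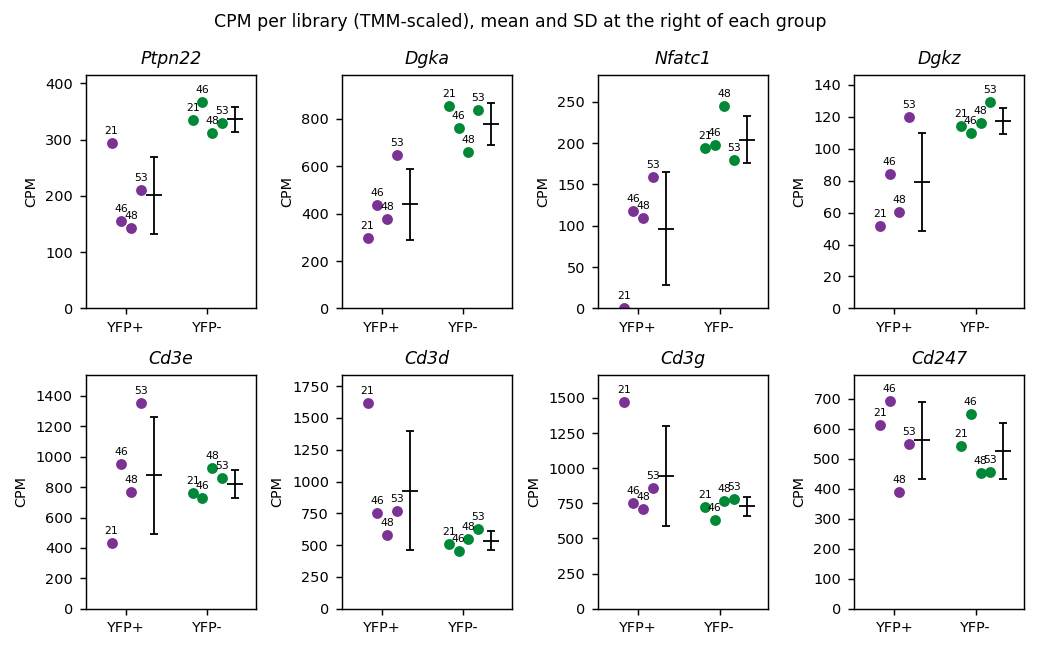
TMM-scaled CPM (y axes, from 0) in each library, YFP+ (purple) left of YFP- (green), with library numbers beside the points and mean ± SD as black bars. In the upper row *Ptpn22*, *Dgka* and *Nfatc1* do not overlap between fractions and *Dgkz* does; in the lower row the receptor genes *Cd3e*, *Cd3d*, *Cd3g* and *Cd247* overlap, with YFP+ library 21 lowest for *Cd3e* (434 CPM) and highest for *Cd3d* (1614 CPM) and *Cd3g* (1469 CPM).

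Among the other restraints, *Ptprc* (CD45), the phosphatase that primes Lck, had 5752 CPM in YFP+ library 21, and 2029 to 2757 CPM in the other YFP+, against 2176 to 2694 CPM in YFP- libraries. Away from that library the fractions overlapped, and the log2 fold change was 0.41 ± 0.33 with all 8 libraries and -0.03 ± 0.12 without it. *Ptpn6* (SHP-1) had 50.2, 243, 340 and 220 CPM in YFP+, against 188 to 230 CPM in YFP-; its highest value was in YFP+ library 48, which also had the highest B cell and myeloid marker sums, and their part in it was not tested.

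*Csk*, which phosphorylates the inhibitory tyrosine of Lck, had 0.237 CPM (5 counts) in YFP+ library 21. It had 104, 121 and 147 CPM in the other YFP+, against 91.8 to 110 CPM in YFP- libraries, so without library 21 the fractions overlapped (0.30 ± 0.15, adjusted p = 0.252). *Pag1*, the membrane anchor of Csk, had 234, 159, 81.7 and 83.1 CPM in YFP+ and 62.1, 110, 56.3 and 50.9 CPM in YFP- libraries, higher in YFP+ in all 4 numbers (1.99-fold, adjusted p = 0.392). *Ubash3a*, which encodes a suppressor of TCR signalling, averaged 261 ± 110 CPM in YFP+ and 325 ± 30.8 CPM in YFP- libraries, and *Cblb*, a ubiquitin ligase that restrains T cell activation, 206 ± 61 CPM in YFP+ and 168 ± 18.7 CPM in YFP- libraries (SD, n = 4 each; edgeR adjusted p = 0.711 and 0.641).

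*Rasgrp1*, the diacylglycerol-activated exchange factor for Ras, had 582, 512, 375 and 507 CPM in YFP+ libraries, against 350, 402, 401 and 308 CPM in YFP-. Only YFP+ library 48 was within the YFP- range. Its log2 fold change of 0.43 ± 0.19 was of opposite sign to those of *Dgka* and *Dgkz*, which act on the same lipid, and did not pass the test (edgeR adjusted p = 0.391).

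*Nfatc1*, the NFAT factor that calcineurin activates and that raises its own transcription in stimulated T cells, had 0.190 CPM (4 counts), 118, 109 and 159 CPM in YFP+ libraries, against 194, 198, 245 and 179 CPM in YFP-. The fractions did not overlap with or without YFP+ library 21. With it the log2 fold change was -1.08 with an SE of 1.16 (edgeR adjusted p = 0.731), and without it -0.67 ± 0.17, which did not pass the test either (adjusted p = 0.0631). *Nfatc2* averaged 29 ± 12.3 CPM in YFP+ and 36.6 ± 8.43 CPM in YFP- libraries, and *Nfatc3* 259 ± 80.6 CPM in YFP+ and 208 ± 43 CPM in YFP-, with overlapping fractions (SD, n = 4 each) (adjusted p = 0.759 and 0.656).

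The genes of the store-operated calcium channel overlapped between the fractions. *Orai1*, its pore, had 58.5, 23.5, 11.9 and 23.2 CPM in YFP+, against 23.3 to 27.7 CPM in YFP-, with YFP+ libraries 46 and 53 near the YFP- values (0.21 ± 0.50, adjusted p = 0.892). *Stim1*, its sensor, had 325, 318, 121 and 156 CPM in YFP+ and 236, 323, 164 and 115 CPM in YFP- libraries. As for *Skap1* and *Themis*, libraries 21 and 46 were the higher ones in both fractions, and the log2 fold change was 0.14 ± 0.43 (adjusted p = 0.924).

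YFP+ library 21 set much of the spread. Against the mean of the other YFP+ libraries, 5 of the 37 genes were under 10% in it (13.5% of the genes), namely *Nfatc1* at 0.147%, *Csk* at 0.191%, *Tec* at 0.832%, *Cd6* at 1.56% and *Vav1* at 5.5%. At the other end, 7 genes (18.9%) were over 2 times that mean: *Themis* at 546%, *Orai1* at 300%, *Cd28* at 291%, *Ptprc* at 242%, *Cd3d* at 230%, *Pag1* at 217% and *Skap1* at 216%. The median ratio over the 37 genes was 1.13. Of the 37, 36 averaged at least 10 CPM in YFP- (all but *Tec*), of which 4 (11.1%) were under 10% and 7 (19.4%) over 2 times the mean. Among 8742 genes held to the same minimum, 31.9% were under 10% in that library and 24.1% over 2 times the mean, and the median ratio was 0.739.

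**Figure D4:**
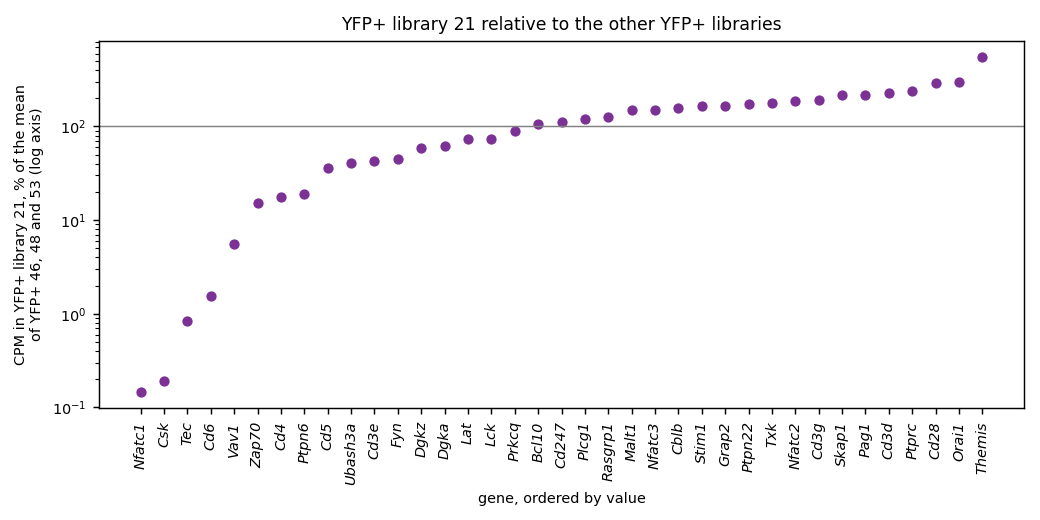
CPM in YFP+ library 21 as a percentage of the mean of YFP+ libraries 46, 48 and 53 (y axis, log scale) for each of the 37 genes (x axis, ordered by value); the line marks 100%. The values run from 0.147% for *Nfatc1* to 546% for *Themis*.

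Summed over the 38 genes, the libraries held 20246, 16361, 13414 and 17703 CPM in YFP+ and 16290, 15951, 15221 and 15755 CPM in YFP-. The YFP+ sums lay on both sides of the YFP- ones. The receptor group held 4131, 3151, 2441 and 3532 CPM in YFP+, against 2465 to 2730 CPM in YFP-, with YFP+ library 48 the lowest of the 8. The diacylglycerol and Ras group held between 813 and 1274 CPM in YFP+, against 1177 to 1320 CPM in YFP-, with YFP+ library 53 inside the YFP- range.

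Of 69 further genes of the pathway, 67 had counts, and *Sla* and *Cd27* were listed at 0. With all 8 libraries 0 of the 67 were lower and 0 higher in YFP+, against 0.836% and 0.0332% of all genes. Their median log2 fold change was -0.15, against -0.02 for all genes. Of the 67 values 40 were negative, against 50.9% of all genes. Without YFP+ library 21, 3 of the 67 fell (4.48%, against 3.97% of all genes) and 2 rose (2.99%, against 2.68%), shares near those of all genes. *Carmil2*, which links CD28 to CARMA1, fell to 5.46 ± 0.897 CPM in YFP+, against 20.3 ± 5.1 CPM in YFP- libraries (log2 fold change -1.90 ± 0.29, edgeR adjusted p = 0.0194), but stood at 48 CPM in YFP+ library 21, above all YFP- libraries, and with all 8 libraries its log2 fold change was -0.34 ± 0.82 (adjusted p = 0.897).

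*Orai2*, another channel subunit, had 48.3 ± 6.13 CPM in YFP+ without library 21 and 77.5 ± 6.59 CPM in YFP- libraries (-0.69 ± 0.13, edgeR adjusted p = 0.0325). *Sh2d1a*, the adaptor SAP, had 86.7 ± 17.8 CPM in these YFP+ and 136 ± 4.7 CPM in YFP- libraries (-0.66 ± 0.15, adjusted p = 0.0437). Both were lower in all 3 of these YFP+ libraries than in any YFP- library. In YFP+ library 21 *Sh2d1a* stood at 157 CPM, above the YFP- libraries. *Orai2* stood at 69.3 CPM there, still below the YFP- values of 73.2 to 87.3 CPM. With all 8 libraries neither passed the test (-0.39 ± 0.27 for *Sh2d1a* and -0.53 ± 0.24 for *Orai2*, adjusted p = 0.564 and 0.409). *Nras*, a Ras GTPase, rose, at 250 ± 24.9 CPM in YFP+ and 173 ± 17.1 CPM in YFP- libraries (0.52 ± 0.12, adjusted p = 0.0453). It stood at 943 CPM in YFP+ library 21, and with all 8 libraries its log2 fold change was 1.29 ± 0.48 (adjusted p = 0.337). *Lyn*, a Src family kinase of B and myeloid cells, rose too without that library, at 54 ± 46 CPM in YFP+ and 8.72 ± 3.57 CPM in YFP- libraries (2.63 ± 0.59, adjusted p = 0.0456, and 3.11 ± 0.68 and 0.109 with all 8 libraries). *Lyn* had 107 CPM in YFP+ library 48 and 139 CPM in YFP+ library 21, the YFP+ libraries with the highest B cell marker sums (2607 and 836 CPM), and the part of those cells in its level was not tested.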

How the data were processed

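Libraries for RNA sequencing were made with the NEBNext Single Cell/Low Input kit from 100 ng of total RNA. The submitters' processing notes name Trim Galore, STAR and mm10; no source used here names the counting tool or says whether it used strand. The deposited values are raw gene counts, not normalized, in 1 table by the authors with 42748 genes and 8 library columns. Where several identifiers shared a symbol, the one with the highest total was used.

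Counts were tested with edgeR 4.0.16 in R 4.3.3 by glmQLFit and glmQLFTest after TMM scaling and filterByExpr (minimum count 10, minimum total 15). The fraction was the sole term, and p-values were adjusted by Benjamini-Hochberg over 15063 genes (threshold 0.05). CPM use TMM-scaled library sizes. Before scaling, 3 counts equal 0.0424 to 0.101 CPM; such floors cover counting error only. The code was tested on simulated data. The alternatives tried were other size factors (RLE, upper quartile), DESeq2 1.42.0, low-count filters that were absent or stricter (5 CPM, 4 libraries), robust dispersion, a block for the library number, and libraries or numbers left out singly, or YFP+ libraries 21 and 48 together. Positions and overlaps are from GENCODE M21 (GRCm38), which held 99.5% of the identifiers.

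The 38 genes, the pathway list and the marker lists were chosen with earlier results of these data known. Values in each library are given for those of the 38 genes past the threshold with all 8 libraries or without YFP+ library 21, genes whose fractions did not overlap, the 4 CD3 and zeta genes, and *Cd4*, *Lck*, *Zap70*, *Lat* and *Lcp2*; other pathway genes past the threshold are named with group means. Those given in full for other genes were chosen after their values were seen.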

Additional observations from a re-analysis of the deposited data

Results flagged for a closer look

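In 4 of 74 groups of 4 libraries, 1 library lay far from the others, where chance gives about 1 in 20 groups (3.7 of 74). In each it was YFP+ library 21, the lowest of its fraction: the gap to the nearest YFP+ library was 0.946 of the whole range of log2 CPM for *Csk*, 0.942 for *Nfatc1*, 0.922 for *Cd6* and 0.833 for *Vav1*.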

How the results depend on the processing

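None of the 37 genes was called in either direction with all 8 libraries under other size factors, other filters, robust dispersion or DESeq2, and 1, *Ptpn22*, was called lower without YFP+ library 21 and without YFP+ libraries 21 and 48. With a library or a number left out, 0 to 1 of the 37 genes and 0 to 628 of all genes were lower and 0 to 424 of all genes higher, and the median log2 fold change of the 37 ran from -0.10 to 0.11. Over all genes, 113 were lower and 2 higher with RLE factors, 10 and 0 without a filter, 9 and 0 with the stricter filter, 704 and 236 without YFP+ libraries 21 and 48, and 581 and 514 by DESeq2. The median of the 37 was -0.12 with the replicate block, -0.11 without a filter, 0.02 with RLE factors and by DESeq2, 0.04 with the stricter filter, and 0.17 without YFP+ libraries 21 and 48. The cause of these differences was not tested. With the library number as a replicate block, 0 genes were lower and 0 higher (1440 at an unadjusted p under 0.05), and 0 of the 37 were called. The main fit did not take the numbers as pairs. Libraries of the same number deviated together with correlations of 0.0489 to 0.14. These deviations were taken from fraction means that include YFP+ library 21. The low correlations thus cannot show that the numbers are not pairs.

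Of 740 single-gene values under these alternatives, 63 had the opposite sign, none of them called. With libraries or numbers left out the log2 fold changes of these genes ran over *Cd3e* -0.20 to 0.32, *Cd247* -0.08 to 0.24, *Cd4* -0.44 to 0.19, *Cd28* -0.16 to 0.66, *Cd5* -0.31 to 0.24, *Cd6* -0.48 to 0.25, *Lck* -0.20 to 0.11, *Zap70* -0.53 to 0.15, *Tec* -0.15 to 1.34, *Skap1* -0.39 to 0.22, *Vav1* -0.61 to 0.17, *Malt1* -0.35 to 0.04, *Ptprc* -0.04 to 0.54, *Ptpn6* -0.35 to 0.39, *Csk* -0.41 to 0.30, *Stim1* -0.15 to 0.42, *Orai1* -0.38 to 0.47. Without YFP+ libraries 21 and 48 they were 0.29 for *Cd4* and *Cd5*, 0.34 for *Cd6*, 0.09 for *Lck*, 0.21 for *Zap70*, 0.32 for *Vav1* and *Csk*, 0.10 for *Ubash3a*, -0.03 for *Ptprc* and -0.13 for *Orai1*. *Skap1* was at 0.05 with RLE factors and by DESeq2 and at 0.04 with the stricter filter, and *Ptpn6* at -0.03 without a filter. With the replicate block, *Cd3e* was at -0.01, *Ptpn6* at -0.22 and *Orai1* at -0.03. With 4 libraries or fewer in a fraction and YFP+ library 21 apart from the rest, the absence of a call does not show that a gene was level.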
